A study of Arabidopsis thaliana with 9 samples.

Results

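The genes described here belong to calcium and calmodulin signalling in Arabidopsis thaliana. They were chosen by name: every tested probe set annotated to exactly 1 gene was kept if the gene's symbol or a listed synonym began with IQD, CML, CAM, CPK, CIPK, CBL, CNGC, CAX, ACA or GLR followed by a number, in upper or lower case. This gave 31 genes out of 13356 genes named on the array, each with 1 probe set. They fell into 3 of the 10 symbol families, with 15 IQD genes, 8 CML genes and 8 GLR genes. No probe set with a single named gene carried a symbol of the other 7 families, whose genes were not analysed here. Of the 22746 tested probe sets 8730 had no gene name here. Further IQD, CML and GLR genes may be among them, so statements on these families cover only the named genes.

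Plants read calcium as a messenger. Touch, wounding, cold, pathogens and light open calcium channels, the rise in cytosolic calcium is sensed by proteins with EF-hand loops, and the loaded sensors bind and alter target proteins. GLR genes encode glutamate receptor-like channels, which can admit calcium and carry wound and immune signals. CML genes encode calmodulin-like sensors, many of them strongly induced by stress and handling. IQD genes encode plant-specific IQ67-domain proteins, scaffolds that bind calmodulin and associate with microtubules and membranes. The 3 families thus represent channels, sensors and calmodulin targets.

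Transcripts were measured in whole Landsberg erecta (Ler) plants after 18 days on solid MS medium under short days, with 8 h of light and 16 h of darkness. The groups were ebs mutants, shl-2 mutants (also written shl-2-2 in part of the labels) and wild type plants (WT), all in Ler and all without further treatment. The series describes both mutants as lacking transcript of the mutated gene, EBS or SHL, which encode related chromatin reader proteins that repress flowering. Each genotype had 3 independent biological pools, and each pool had its own Affymetrix array. Because whole seedlings were extracted, fewer cells of a type and less RNA per cell cannot be told apart.

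Median log2 signals of the 9 arrays lay between 6.06 and 6.12 over the 22746 tested probe sets, and the number of arrays limits the precision of every value. SHL, annotated as SHL1, read 7.46, 6.91 and 6.52 in shl-2, against 7.88, 8.02 and 7.88 in WT, so the shl-2 arrays were lower but still above the array medians and did not show an absence of its transcript at this probe set. Where the probes lie with respect to the mutation is not known here. It had a log2 fold change of -0.96 for shl-2 minus WT (adjusted p = 0.0182 in limma), a call lost without shl-2 array 2 or WT arrays 2 or 3 and with the shl-2 and WT arrays fitted alone (adjusted p up to 0.0772), and EBS was not analysed here. Few listed tissue markers had a named probe set: 4 of 19 for green tissue, 2 of 17 for root, 2 of 19 for flower and pollen, and 0 of 9 for seed. The 4 green-tissue genes averaged 13.6 to 13.8 on every array. The 2 root-hair expansin genes averaged 4.69 to 5.18, and the 2 pollen MADS-box genes 2.93 to 3.11. Both pollen genes lay below 3.85, the lower quartile of all probe set means. None of the markers found was called in any comparison by limma. At an unadjusted p under 0.05 there was 1 root gene in ebs against WT and 1 in shl-2 against ebs. So few markers do not settle whether the tissue make-up differed.

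Few of the calcium genes passed the test in any comparison. In ebs 1 of 31 was called at a limma adjusted p under 0.05, 0 higher and 1 lower, when 3.19% of all tested probe sets were called, 1.72% higher and 1.47% lower. In shl-2 3 were called, 0 higher and 3 lower, when 5.43% of all probe sets were called, 2.44% higher and 2.99% lower. Between shl-2 and ebs 1 was called, 0 higher and 1 lower in shl-2, when 0.769% of all probe sets were called, 0.268% higher and 0.501% lower. Median log2 fold changes over the 31 genes were -0.02 in ebs, -0.06 in shl-2 and -0.02 for shl-2 minus ebs, and over all probe sets they were -0.02, -0.03 and 0.00. With 31 genes, 1 call corresponds to 3.23% and 3 calls to 9.68%. The members were chosen with earlier results of these data known, so these shares are descriptive and no independent test of the group. The results lie in single genes: the scaffold genes IQD22 and IQD23, the channel genes GLR3.5 and GLR2.7, and the widely spread sensor gene CML38.

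**Figure D1:**
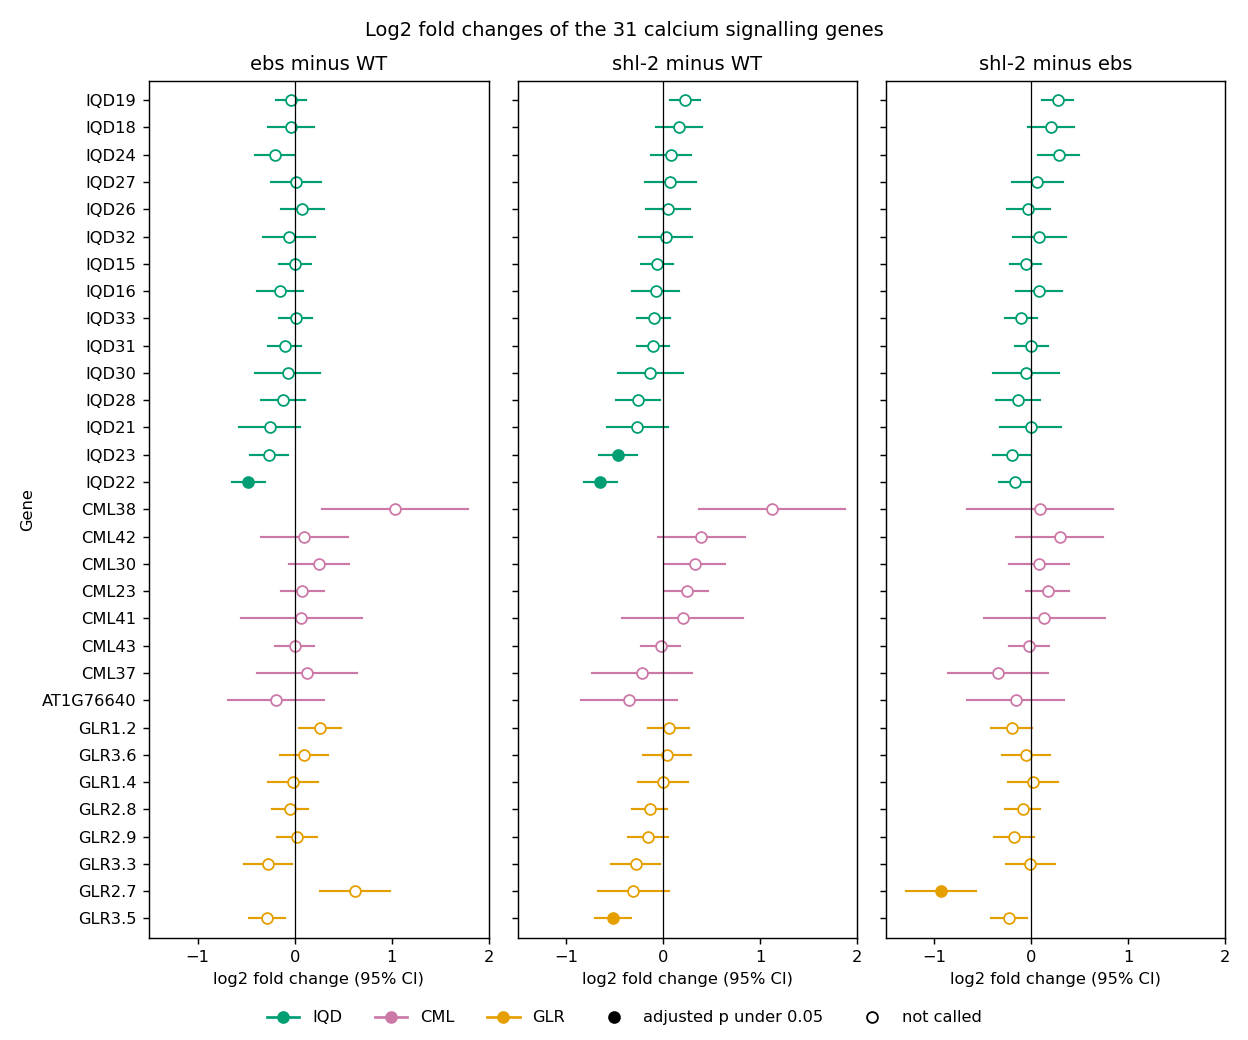
Log2 fold changes (x axis) of the 31 genes (y axis, grouped as IQD, CML and GLR from top to bottom) for ebs minus WT, shl-2 minus WT and shl-2 minus ebs, with limma's 95% confidence intervals as lines. Filled points mark an adjusted p under 0.05 over all probe sets: IQD22 in ebs, IQD22, IQD23 and GLR3.5 in shl-2, and GLR2.7 between the mutants.

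Among the channel genes, GLR3.5 fell in shl-2. GLR3.5 encodes a glutamate receptor-like channel with organelle-targeted forms and a reported part in stomatal and wound signalling. Its log2 signals were 6.82, 6.92 and 6.76 in ebs, 6.54, 6.65 and 6.61 in shl-2, and 7.07, 7.03 and 7.25 in WT. All 3 genotypes were separated: every shl-2 array lay below every ebs array, and every ebs array below every WT array. The mean was 6.60 ± 0.06 (SD, n = 3) in shl-2 and 7.12 ± 0.12 in WT, which is 1.43-fold lower in shl-2 (log2 fold change -0.52 with an SE of 0.08; adjusted p = 0.00574 in limma). In ebs the mean was 6.83 ± 0.08, and the log2 fold change of -0.28 did not pass (adjusted p = 0.102, 95% confidence interval -0.47 to -0.10). The direct difference, shl-2 minus ebs, was -0.23 (adjusted p = 0.314), so the mutants were not shown to differ for this gene.

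GLR2.7 was the member that differed between the mutants. It encodes a channel of the second GLR clade, whose members GLR2.7, GLR2.8 and GLR2.9 contribute to calcium entry in immune responses, and the 3 genes follow each other directly on chromosome 2. GLR2.7 read 6.44, 6.23 and 6.37 in ebs, 5.78, 5.26 and 5.21 in shl-2, and 5.93, 5.79 and 5.45 in WT. The ebs arrays were above all the others, whereas shl-2 and WT overlapped. Between the mutants the log2 fold change was -0.93 for shl-2 minus ebs (SE 0.16, limma adjusted p = 0.0332), with means of 5.42 ± 0.32 in shl-2 and 6.35 ± 0.11 in ebs (SD, n = 3), 1.91-fold lower in shl-2. Against WT, at 5.72 ± 0.25, neither mutant passed: the log2 fold change was 0.62 in ebs (SE 0.16, adjusted p = 0.075) and -0.31 in shl-2 (adjusted p = 0.361). In ebs it did pass with the replicate number as a block (adjusted p = 0.023) and without shl-2 array 1 (adjusted p = 0.0379). The other 14 alternative fits gave no call in ebs (adjusted p up to 0.209). The call between the mutants was lost without any of the 3 ebs arrays, without shl-2 arrays 2 or 3, or without WT array 2. It was also lost when only the arrays of shl-2 and ebs were fitted (adjusted p up to 0.152 over these fits). The log2 fold change between the mutants stayed between -1.11 and -0.83. Its neighbours GLR2.8 and GLR2.9 had dim signals, averaging 3.40 ± 0.11 and 3.31 ± 0.16 in ebs, 3.31 ± 0.10 and 3.13 ± 0.08 in shl-2, and 3.44 ± 0.06 and 3.28 ± 0.06 in WT (SD, n = 3). For shl-2 minus ebs their log2 fold changes were -0.09 (adjusted p = 0.774) and -0.18 (adjusted p = 0.541), but both probe sets lay below the lower quartile of all means, where changes are hard to detect.

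The other channel genes did not pass in any comparison. GLR3.3, a main carrier of leaf-to-leaf wound signals together with GLR3.6, read 7.53, 7.35 and 7.53 in ebs, 7.53, 7.62 and 7.23 in shl-2, and 7.67, 7.88 and 7.68 in WT. Every mutant array lay below every WT array, with log2 fold changes of -0.27 in ebs (adjusted p = 0.248) and -0.28 in shl-2 (adjusted p = 0.203). GLR3.6 itself had values of 0.10 in ebs and 0.04 in shl-2 (adjusted p = 0.731 and 0.907). GLR1.2, known for calcium entry in pollen tubes, read 3.54, 3.64 and 3.64 in ebs against 3.26, 3.34 and 3.43 in WT, all below the lower quartile, a log2 fold change of 0.26 (adjusted p = 0.191). GLR1.4, a channel opened by amino acids when expressed in frog oocytes, stayed between 3.92 and 4.31 on all 9 arrays. Over the 8 GLR genes the median log2 fold change was 0.00 in ebs and -0.15 in shl-2, with 4 and 6 negative values.

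Among the sensor genes, CML38 had the largest log2 fold changes against WT, in both mutants, and the widest spread. CML38 encodes a calmodulin-like protein induced by wounding and low oxygen. It read 7.68, 6.20 and 7.56 in ebs, 7.32, 6.99 and 7.40 in shl-2, and 6.44, 5.78 and 6.12 in WT. All 3 shl-2 arrays lay above the WT arrays, but ebs array 2 lay among them. Means were 7.15 ± 0.82 in ebs, 7.24 ± 0.22 in shl-2 and 6.11 ± 0.33 in WT (SD, n = 3), which is 2.05-fold higher than WT in ebs and 2.18-fold higher in shl-2. Neither passed, the log2 fold change being 1.03 in ebs (adjusted p = 0.146 in limma) and 1.12 in shl-2 (adjusted p = 0.0935), each with an SE of 0.34. In shl-2 the call depended on the fit: with the replicate number as a block the adjusted p was 0.0145, and with only the shl-2 and WT arrays, or without ebs array 2, CML38 also passed. In ebs CML38 passed with that block (adjusted p = 0.0289). It also passed without ebs array 2, where its log2 fold change was 1.51 (adjusted p = 0.00476). The other 14 alternative fits gave no call in ebs (adjusted p up to 0.378). The difference for shl-2 minus ebs was 0.09 with a 95% confidence interval of -0.67 to 0.85, and it was -0.38 without ebs array 2.

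**Figure D2:**
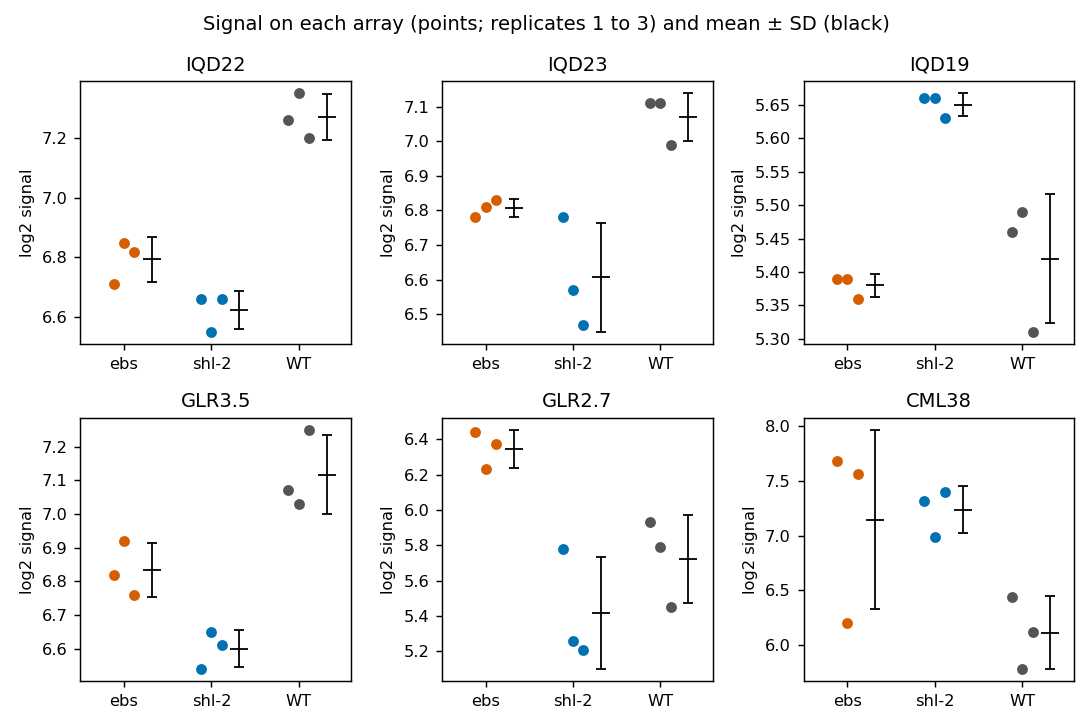
Log2 signal (y axis, each panel with its own range) of 6 genes on each array, by genotype (x axis: ebs, shl-2, WT); points are the 3 replicates and black bars the mean ± SD. IQD22, IQD23 and GLR3.5 sit below WT in every mutant array, GLR2.7 is highest in ebs, IQD19 highest in shl-2, and CML38 has 1 ebs array, at 6.20, among the WT values.

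The spread of CML38 was shared by other CML genes. Within genotypes the SD of CML38 was 0.53, a value exceeded by 1.11% of all probe sets, and 5 of the 8 CML genes (CML38, CML41, CML37, AT1G76640 and CML42) lay above the 95th percentile of all tested probe sets, 0.28. By contrast 0 of 15 IQD and 0 of 8 GLR genes did. Of the 5 CML genes, CML37 and AT1G76640 had dim signals below the lower quartile of all probe set means. The median within-genotype SD was 0.32 for CML, 0.13 for IQD, 0.13 for GLR and 0.12 for all probe sets. The same arrays were low for several sensors: ebs array 2 was the lowest of its genotype for 7 of 8 CML genes, shl-2 array 2 for 5 of 8 and WT array 2 for 5 of 8, where over all probe sets the shares were 29.7%, 31.2% and 30.7%. CML41, whose protein sits at plasmodesmata and acts in callose closure during immune responses, read 5.70, 5.01 and 5.96 in ebs, 5.96, 5.53 and 5.58 in shl-2, and 5.95, 4.93 and 5.58 in WT. The 3 genotypes overlapped for CML41, with log2 fold changes of 0.07 in ebs (adjusted p = 0.94) and 0.20 in shl-2 (adjusted p = 0.77).

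**Figure D3:**
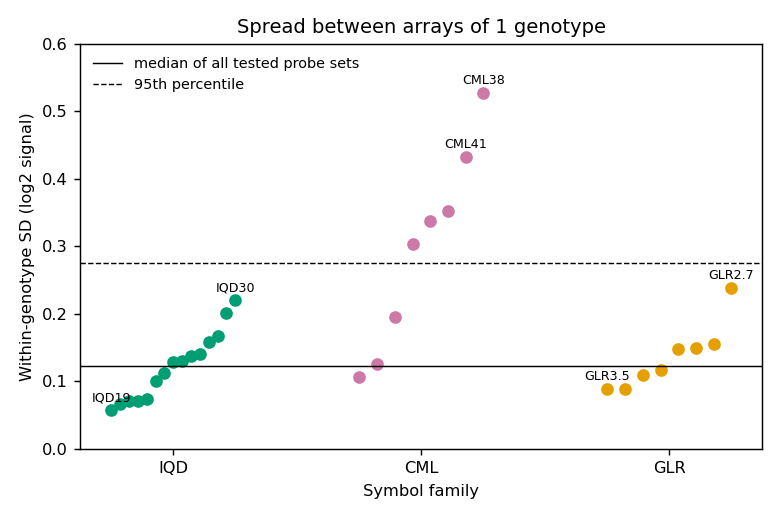
Within-genotype SD of the log2 signal (y axis) for each IQD, CML and GLR gene (points, sorted within the family), with the median of all tested probe sets, 0.12, as a solid line and their 95th percentile, 0.28, as a dashed line. Only CML genes, 5 of 8, lie above the dashed line, and of these CML37 and AT1G76640 have dim signals.

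A list of 44 early transcripts induced by touch or cold, chosen outside the 3 families, had 4 members with a named probe set. These were STZ and WRKY53, which encode stress-induced transcription factors, and the ubiquitin ligase genes PUB22 and PUB23. Their mean was 7.41, 6.11 and 7.39 on the ebs arrays, 6.50, 6.05 and 6.11 on the shl-2 arrays, and 6.74, 5.97 and 6.30 on the WT arrays. In ebs all 4 genes were lowest on array 2, and the 2 high ebs arrays were also the 2 high ebs arrays of CML38. The mean was also lowest on array 2 in shl-2 and WT, but not for every gene. In shl-2 it was 6.05 against 6.11 on array 3, and only WRKY53 was lowest on array 2. In WT, WRKY53 and PUB23 were lowest on array 2, but STZ and PUB22 on array 3. STZ alone read 9.38, 6.94 and 9.26 in ebs, 8.07, 7.52 and 7.49 in shl-2, and 8.75, 7.89 and 7.86 in WT. None of the 4 was called in either mutant by limma (0 calls, with 2 at an unadjusted p under 0.05 in ebs, and 0 in shl-2). In shl-2 CML38 was higher on every array than in WT but was not called. The log2 fold changes of the 4 genes in shl-2 were -0.08 for PUB22, -0.22 for WRKY53, -0.47 for STZ and 0.30 for PUB23. Their limma adjusted p in shl-2 was at least 0.709. In ebs all 4 were positive, at 0.48 for PUB22, 0.74 for WRKY53, 0.36 for STZ and 0.94 for PUB23. There the limma adjusted p was at least 0.152. For shl-2 minus ebs all 4 were negative, from -0.97 for WRKY53 to -0.55 for PUB22 (limma adjusted p of at least 0.195). The part of these shared array differences in the CML38 values of either mutant was not tested.

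**Figure D4:**
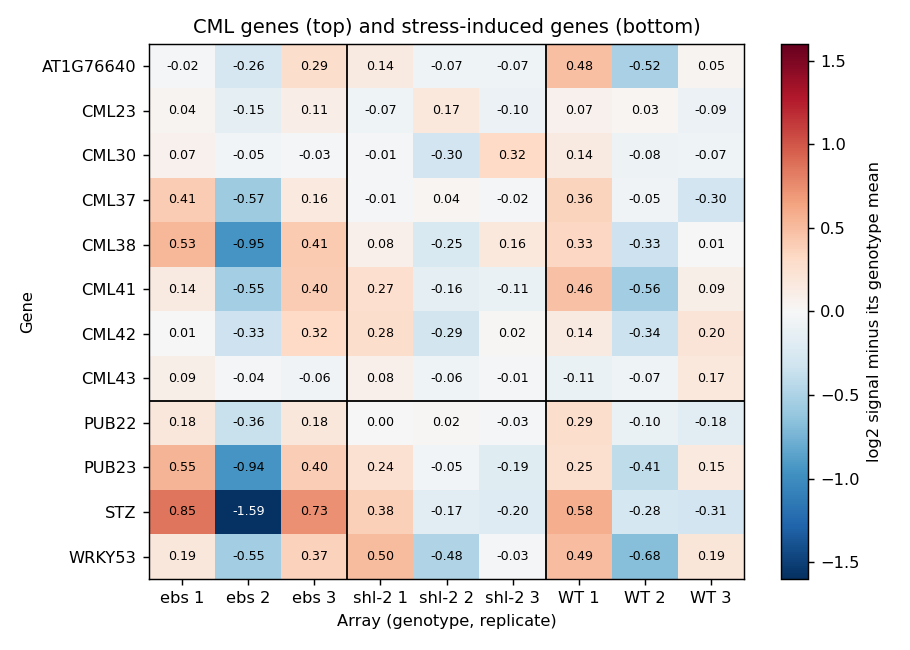
Deviation of each log2 signal from its genotype mean (colour and printed number) on the 9 arrays (columns: ebs, shl-2, WT). Upper rows are the 8 CML genes, and lower rows the 4 touch- or cold-induced genes with a named probe set. The column of ebs array 2 is low for CML38 (-0.95) and STZ (-1.59), and WT array 2 is low for CML41 (-0.56) and WRKY53 (-0.68).

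The other CML genes gave no call. CML42, which acts in trichome branching and in defence against insects, had log2 fold changes of 0.10 in ebs (adjusted p = 0.857) and 0.39 in shl-2 (adjusted p = 0.338). CML23, which with its close relative CML24 affects flowering time and nitric oxide levels, averaged 4.21 ± 0.14 in ebs, 4.38 ± 0.15 in shl-2 and 4.13 ± 0.08 in WT (SD, n = 3). Its shl-2 arrays lay just above the WT arrays, with a log2 fold change of 0.25 (adjusted p = 0.213). CML30, which has a mitochondrial protein, had log2 fold changes of 0.25 in ebs and 0.33 in shl-2 (adjusted p = 0.405 and 0.237). CML43 averaged 4.21 ± 0.08 in ebs, 4.18 ± 0.07 in shl-2 and 4.21 ± 0.15 in WT (SD, n = 3). CML37, a wound-induced sensor, and AT1G76640, the direct neighbour of CML38 on chromosome 1, had dim signals below the lower quartile; CML39 is listed as a synonym of both. CML37 had log2 fold changes of 0.13 in ebs and -0.22 in shl-2, AT1G76640 -0.19 and -0.35, all with adjusted p of at least 0.449.

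Among the calmodulin targets, IQD22 fell in both mutants. It read 6.71, 6.85 and 6.82 in ebs, 6.66, 6.55 and 6.66 in shl-2, and 7.26, 7.35 and 7.20 in WT. Every mutant array lay below every WT array, and the shl-2 arrays lay below the ebs arrays. Means were 6.79 ± 0.07 in ebs, 6.62 ± 0.06 in shl-2 and 7.27 ± 0.08 in WT (SD, n = 3). In ebs the log2 fold change was -0.48 (SE 0.08, limma adjusted p = 0.0095), 1.39-fold lower, and in shl-2 it was -0.65 (SE 0.08, adjusted p = 0.00118), 1.57-fold lower. By p-value IQD22 ranked 203 among 22746 probe sets in ebs and 121 in shl-2. Both comparisons used the same WT arrays. The difference between the mutants, -0.17 for shl-2 minus ebs, did not pass (adjusted p = 0.458, 95% confidence interval -0.34 to -0.003). Without ebs array 1 the ebs value was -0.44 with an adjusted p of 0.0504, and in shl-2 the call held whichever array was left out.

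IQD22 lies on chromosome 4, as do EBS and SHL1. In the gene order of the TAIR10.1 RefSeq annotation it is 108 protein-coding genes from EBS and 1746 from SHL1. Between EBS and IQD22, 46 genes had a named probe set, of which 4 were called in ebs, 2 higher and 2 lower, and 3 in shl-2, 2 higher and 1 lower. These shares of named genes, 8.7% and 6.52%, stand beside 3.19% and 5.43% over all tested probe sets, named or not. Within the same distance of EBS on both sides, IQD22 included, 86 genes had a named probe set. Of these 6 were called in ebs and 6 in shl-2, a share of 6.98% in each. The 86 genes include the 46 between EBS and IQD22. For shl-2 minus ebs 0 genes were called in either set, beside 0.769% of all probe sets. Other members on chromosome 4 were CML42, 155 genes from EBS, and IQD19 and IQD16, 850 and 1317 genes from EBS, none of which was called in ebs.

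IQD23 also fell in shl-2. It read 6.78, 6.81 and 6.83 in ebs, 6.78, 6.57 and 6.47 in shl-2, and 7.11, 7.11 and 6.99 in WT. As for IQD22, all 6 mutant arrays were below all 3 WT arrays. The shl-2 mean was 6.61 ± 0.16 against 7.07 ± 0.07 in WT (SD, n = 3), which is 1.38-fold lower in shl-2 (log2 fold change -0.46 with an SE of 0.09; adjusted p = 0.0133 in limma). In ebs, at 6.81 ± 0.03, it was -0.26 (SE 0.09, adjusted p = 0.152). The difference for shl-2 minus ebs, -0.20, did not pass either (adjusted p = 0.453), and without WT array 2 the shl-2 call was lost (log2 fold change -0.44, adjusted p = 0.0592).

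IQD22, IQD23, GLR3.3 and GLR3.5 were the 4 members whose 6 mutant arrays all lay below the WT arrays, and 0 members lay above them in this way. Of all probe sets 6.79% were lower and 3.72% higher by this criterion. Comparing each mutant alone, the arrays did not overlap with WT for 10 members in ebs, 3 higher and 7 lower, when 7.34% of all probe sets were higher and 12.6% lower without overlap. In shl-2 there were 8 such members, 3 higher and 5 lower, when 7.94% of all probe sets were higher and 12.6% lower.

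IQD19 was singled out after its values were seen, since it had the smallest spread of the 31 genes, with a within-genotype SD of 0.06. It read 5.39, 5.39 and 5.36 in ebs, 5.66, 5.66 and 5.63 in shl-2, and 5.46, 5.49 and 5.31 in WT. The shl-2 arrays were above all other arrays, by 0.23 over WT on the log2 scale (SE 0.07, adjusted p = 0.0967 in limma) and by 0.27 against ebs (adjusted p = 0.143), neither of which passed. IQD24 read 7.17, 7.43 and 7.21 in ebs, 7.44, 7.51 and 7.70 in shl-2, and 7.44, 7.49 and 7.48 in WT. Its ebs arrays were the lowest, but the log2 fold changes of -0.20 in ebs and 0.28 for shl-2 minus ebs did not pass (adjusted p = 0.316 and 0.285).

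The remaining 11 IQD genes gave small values. In ebs they ran from -0.26 for IQD21 to 0.08 for IQD26, and in shl-2 from -0.26 for IQD21 to 0.16 for IQD18. IQD21 and IQD28 had log2 fold changes of -0.26 each in shl-2, with adjusted p of 0.362 and 0.207, and IQD28 had no overlap between shl-2 and WT. IQD31 averaged 8.04 in both mutants and 8.14 in WT. IQD27 was dim, averaging 2.98 in ebs, 3.04 in shl-2 and 2.96 in WT. Of the 15 IQD genes 11 had negative values in ebs and 9 in shl-2, against 55.8% and 57.4% of all probe sets, with medians of -0.07 and -0.08.

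Further calcium genes outside the 3 families could be looked up only by name. Of the 22746 tested probe sets, 8730 had no gene name here. Whether the array measured the other listed genes is therefore not known. Of 43 other channels, pumps and exchangers 1 was found by name, AT1G53210, the sodium/calcium exchanger-like gene NCL. It read 11.37, 11.39 and 11.36 in ebs, 11.57, 11.58 and 11.48 in shl-2, and 11.40, 11.23 and 10.94 in WT. Its shl-2 arrays were the highest, at 0.35 over WT on the log2 scale (SE 0.11, adjusted p = 0.0928 in limma), and it did not pass. The calreticulin gene CRT1b, for a calcium-storing chaperone of the endoplasmic reticulum, had values of 0.02 in ebs and -0.06 in shl-2 (adjusted p = 0.96 and 0.789). The plastid calcium-sensing receptor gene CaS had 0.06 and -0.12 (adjusted p = 0.814 and 0.565). CaS was the 1 member found by name in a list of 47 other calcium- or calmodulin-binding proteins. A cysteine proteinase gene that shares the symbol CP1 was set aside. No gene of the CAMTA and CBP60 transcription factors or of the listed CPK and CIPK targets had a named probe set here.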

How the data were processed

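Transcripts were measured on 9 Affymetrix arrays, 3 per genotype. The authors deposited log2 signals, 1 for each probe set, from RMA (affy package), per the submitters' processing notes. Versions, filters and genome build: not given in the sources used here. RMA corrects background, normalizes arrays to each other and summarises probes, so these steps could not be varied. RNA came from complete plants and 500 ng was labelled, per the labels' protocols.

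The table lists 22810 probe sets, and 22746 were tested, without the 64 AFFX controls and with no filter on low signals. Names came from the platform annotation and, through Entrez identifiers, RefSeq TAIR10.1: 13513 probe sets named 1 gene (13436 matched RefSeq), 503 several and 8730 none here. Of the 31 members, 28 matched in capitals and 3 through lower-case symbols. The files name no build, so only gene order is given. No sequences are shown.

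With limma 3.58.1 in R 4.3.3, 1 model with the 3 genotype means was fitted to the 9 arrays (lmFit, eBayes). Tests were two-sided, with Benjamini-Hochberg adjustment over all 22746 probe sets and a threshold of 0.05. The fit was tested on simulated data with independent errors, so that test does not cover deviations shared by many genes on 1 array. Errors are limma's standard errors for log2 fold changes and SDs for means. P-values compare a difference of means with the spread between the biological pools. That spread was estimated over the 3 genotypes and moderated across probe sets by eBayes. Named were all called members, IQD22, the member of each family with the largest change per mutant, SHL1, and called genes of other calcium lists (there were 0); genes just outside the threshold and the rest were added for completeness. Members and lists were chosen with earlier results of these data known. Both mutants share the WT arrays.

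Same-numbered arrays of shl-2 and WT deviated together (r = 0.171 to 0.405 across probe sets in 3 pairs, each over 0.1). Differently numbered arrays of shl-2 and WT had r of -0.33 to 0.146. With ebs, the same-numbered pairs of arrays 1 and 2 had r of 0.156 to 0.46, and those of array 3 had -0.285 and -0.108. Of all 9 same-numbered pairs 7 were over 0.1. Differently numbered pairs with ebs had r of -0.544 to 0.459. Deviations from a genotype mean cancel within the genotype, so the r values of different pairs are not independent. Because array 3 of ebs did not follow its number, the replicate block was kept as an alternative. It is printed beside a result against WT where it changes the call. Alternatives were that block, median centring, repeated quantile normalization, removal of the dimmest 30%, trended and robust variances, only the compared genotypes, 1 probe set per gene, an adjusted p under 0.01, the probe set of largest SD, and leaving out each array.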

Additional observations from a re-analysis of the deposited data

Results flagged for a closer look

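GLR2.7 stood out because the changes from WT in the mutants differed by the direct test: its log2 fold change for shl-2 minus ebs was -0.93 (SE 0.16, n = 3, limma adjusted p = 0.0332), with the 3 ebs arrays above the 3 shl-2 arrays. It was 0.62 in ebs and -0.31 in shl-2 against the same WT arrays, neither of which passed. With 3 arrays per genotype, no test for single outlying arrays was run.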

How the results depend on the processing

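Median centring, repeated quantile normalization, removal of the dimmest 30%, trended and robust variances and 1 probe set per gene left the members called in each comparison the same, by name. With the replicate block 3 members passed in ebs (IQD22, CML38 with adjusted p = 0.0289 and GLR2.7 with 0.023), 4 in shl-2 and 1 between the mutants; 5 of 9 arrays correlated best with an array of their own number. With only the compared genotypes fitted, 0 members and 112 probe sets passed between shl-2 and ebs. At an adjusted p under 0.01 0 members passed between the mutants, and 212, 530 and 51 probe sets passed in ebs, shl-2 and shl-2 minus ebs. Testing 1 probe set per named gene left 370, 568 and 84, since fewer were tested. Leaving out single arrays gave 0 to 2 called members in ebs, 2 to 4 in shl-2 and 0 to 1 between the mutants, and 264 to 838, 677 to 1229 and 64 to 190 called probe sets. Values that turned sign were CML38 for shl-2 minus ebs (-0.38 without ebs array 2, and -0.38 to 0.36 over single arrays left out), GLR3.3 for shl-2 minus ebs (0.02 without ebs array 1 or 3, 0.11 without shl-2 array 3, range -0.09 to 0.11) and GLR1.2 in shl-2 (-0.023 without shl-2 array 1, range -0.023 to 0.15); none of these passed, and the cause was not tested. IQD22 in shl-2 and GLR3.5 in shl-2 kept their calls in all 16 alternative fits. The probe set of largest SD was the same for every member. Dim signals limit GLR1.2, GLR2.8, GLR2.9, CML37, AT1G76640 and IQD27.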
